A study of Mus musculus with 6 samples.

Results

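T-macrophage barcodes were 1456 of the 38294 barcodes kept from CD45+ cells of B16-F10 melanomas, a mouse tumor line grown under the skin. A barcode marks the RNA of 1 droplet, which can hold 1 cell or several. The 1456 were chosen by their own UMI counts (unique molecular identifiers, 1 for each captured RNA molecule). Each had at least 2 UMIs of Cd3d, Cd3e and Cd3g together, at least 3 of C1qa, C1qb and C1qc together, and 0 of the B cell genes Cd79a, Cd79b and Ms4a1. Kept barcodes had at least 600 genes and at most 10% mitochondrial UMIs, with no upper limit on genes, and came from 52899 deposited barcodes.

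All 6 samples came from female C57BL/6 mice aged 6 to 10 weeks that received αPD-1, an antibody against the inhibitory receptor of T cells, at 150 µg 3 times a week from day 7 after tumor inoculation. The 3 αPD-1 + corin samples were also given corin, an inhibitor of the CoREST complex, at 200 µg daily from day 6. The αPD-1 samples carried no corin label, and animals without corin received vehicle. The cells were frozen, thawed, freed of dead cells and pulled down with CD45 beads before 5' single-cell capture. The labels give 10 mice per treatment group and do not say which mice a sample holds, so p-values over samples measure the spread between these 6 libraries.

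The CD3 chains carry the signal of the T cell receptor, and their genes are neighbors on chromosome 9 (Cd3g 44880870 to 44891735, Cd3d 44893083 to 44899173 and Cd3e 44910037 to 44920925, GENCODE vM39 on GRCm39). The C1q chains begin the classical complement pathway and are made in tumors mainly by macrophages. Their genes lie side by side on chromosome 4 (C1qb 136606009 to 136613511, C1qc 136616466 to 136620376 and C1qa 136623223 to 136626161). T cells meet macrophages as they read peptides on MHC molecules, and macrophages also engulf other cells. A droplet that captures a T cell and a macrophage, joined or not, carries the RNA of both.

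Cd3+ barcodes below are all kept barcodes that met the Cd3 and B cell limits, 5822 in all, and C1q+ barcodes are the 9728 that met the C1q and B cell limits. T-macrophage barcodes belong to both. T-only barcodes are the 3766 Cd3+ barcodes with no C1q UMI, and macrophage-only barcodes are the 8030 C1q+ barcodes with no Cd3 UMI. Of 52600 deposited barcode sequences 299 occurred in more than 1 library, and 1 of 1455 T-macrophage barcode sequences did.

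Both lineages were present beyond the genes of the rule. Of T-macrophage barcodes, 96.0% to 99.7% per sample had a UMI of 8 other T cell genes (among them Trac, Trbc1, Trbc2, Lck, Bcl11b, Lat and Skap1) and 94.8% to 100% had one of 7 other macrophage genes (among them Csf1r, Adgre1, Ms4a7, Fcgr1, Aif1 and Cd68). The rule itself selects on Cd3e, C1qa and C1qb. Cd3e, a signaling chain of the receptor complex, had a UMI in 63.0% to 91.2% of T-macrophage barcodes, C1qa in 76.0% to 89.9% and C1qb in 97.7% to 100%. Lyz2, the lysozyme of myeloid cells, had one in 73.8% to 98.6%, against 76.3% to 95.8% of macrophage-only and 8.20% to 35.7% of T-only barcodes. Cd8a, the coreceptor of cytotoxic T cells, had one in 34.1% to 79.7%, against 29.4% to 69.4% of T-only and 0.215% to 1.72% of macrophage-only barcodes.

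The T-macrophage barcodes were deeper than either class alone, an order that their selection favors. Their median was 8457, 11922 and 6402 UMIs in αPD-1 replicates 1 to 3 and 7635, 12506 and 11736 in αPD-1 + corin replicates 1 to 3. T-only barcodes had medians of 2468 to 5096 UMIs and macrophage-only barcodes of 3530 to 5643. Every T-macrophage median lay above every median of the other classes. The selection asks for UMIs of both Cd3 and C1q genes in T-macrophage barcodes, which deep barcodes reach more readily. It asks that the other classes lack UMIs of C1q or of Cd3, which shallow barcodes do more readily. Cd3+ barcodes with 1 or 2 C1q UMIs, outside the rule, had medians of 3662 to 7504 UMIs, above the T-only median in every sample. How much of the depth gap follows from the selection was not tested. More than 4000 genes were found in 14.4% to 42.4% of T-macrophage barcodes, a range that the published analysis of these libraries left out along with called doublets. Both were kept here.

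C1q counts within Cd3+ barcodes were mostly 0, with the rest spread over a wide range up to 50 or more. Of the 5822, 3766 had no C1q UMI, 600 had 1 or 2, 159 had 3 or 4, 277 had 5 to 9, 278 had 10 to 19, 406 had 20 to 49 and 336 had 50 or more. The bin of 3 or 4 held the fewest, but the bins above it span more UMI values. These counts therefore do not show a gap at the limit of the rule. In C1q+ barcodes, Cd3 counts of 20 to 49 UMIs were in 0.0912% of those of αPD-1 + corin replicate 1 and in 1.88% to 10.9% in the other samples. Just outside the limits, the 180 barcodes with 2 C1q UMIs had medians of 1 to 5 UMIs of the 7 other macrophage genes per sample, and the 96 just inside with 3 had medians of 3 to 7.5. The 242 barcodes with 1 Cd3 UMI had medians of 1 to 5 UMIs of the 8 other T cell genes, and the 168 just inside with 2 had medians of 3 to 6.

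**Figure D1:**
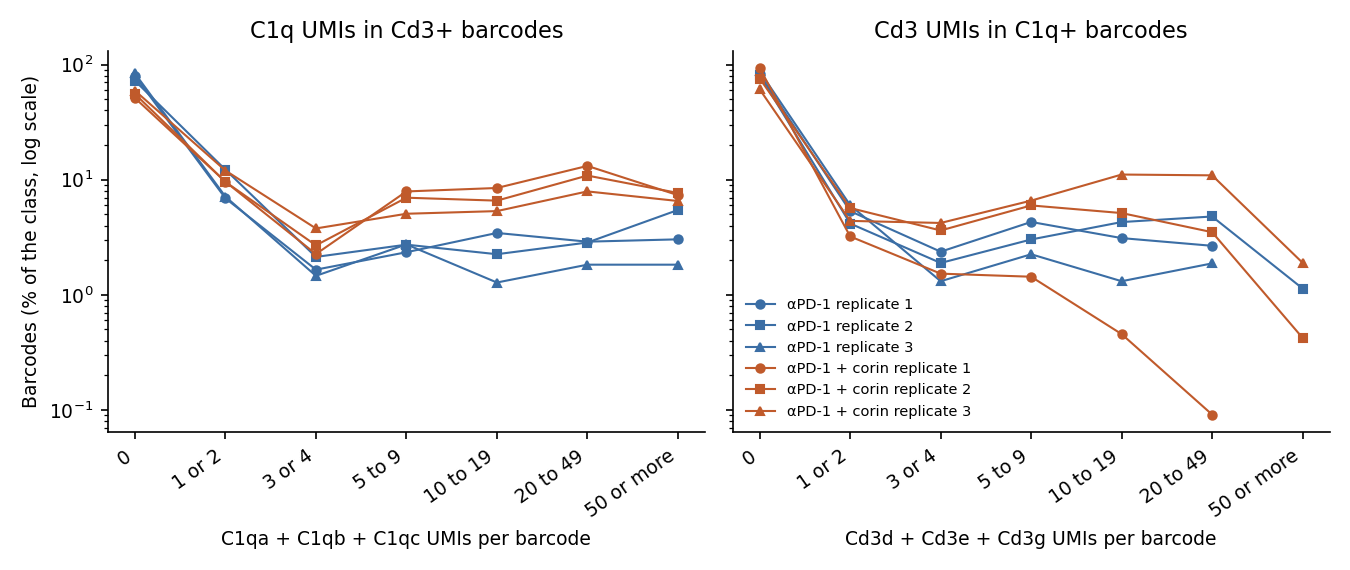
Share of Cd3+ barcodes by their summed C1q UMIs (left) and of C1q+ barcodes by their summed Cd3 UMIs (right), in percent on a log scale, with 1 line per sample and shares of 0 not drawn. The bins widen to the right, so a low point is not a gap in the counts. On the left the lowest point is at 3 or 4 UMIs in 5 of 6 samples and at 10 to 19 in αPD-1 replicate 3. On the right αPD-1 + corin replicate 1 falls to 0.0912% at 20 to 49.

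T-macrophage barcodes made up a larger share of the Cd3+ barcodes in every αPD-1 + corin sample than in any αPD-1 sample. The share was 13.4%, 15.4% and 9.14% in αPD-1 replicates 1 to 3 (97 of 725, 130 of 843 and 50 of 547) and 39.2%, 34.8% and 28.6% in αPD-1 + corin replicates 1 to 3 (208 of 531, 349 of 1003 and 622 of 2173). The groups did not overlap, at 12.6% ± 3.20 (SD, n = 3) and 34.2% ± 5.30 (SD, n = 3), a difference of 21.5 percentage points (two-sided exact permutation p = 0.1, the smallest that 3 samples against 3 allow, 0.4 adjusted over 4 comparisons). With every barcode thinned to 2000 UMIs, which left out 3841 shallower barcodes of αPD-1 and 3649 of αPD-1 + corin, the shares were 11.8% ± 3.14 (SD, n = 3) and 21.2% ± 7.73 (SD, n = 3), still without overlap.

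The limit of 0 B cell UMIs acted unequally on the treatments. Of kept barcodes, 41.6%, 37.8% and 41.9% had a UMI of Cd79a, Cd79b or Ms4a1 in αPD-1 and 6.12%, 7.59% and 4.29% in αPD-1 + corin. Without that limit 424, 411 and 282 barcodes in αPD-1 met the Cd3 and C1q limits, and 77.1%, 68.4% and 82.3% of them held a B cell UMI. In αPD-1 + corin 247, 420 and 682 met both limits, and 15.8%, 16.9% and 8.80% held one. The share of Cd3+ barcodes without the limit was 25.0%, 27.4% and 22.2% in αPD-1 and 41.4%, 37.6% and 30.0% in αPD-1 + corin. These groups did not overlap either, but the difference was 11.5 percentage points in place of 21.5 (24.9% ± 2.61 and 36.3% ± 5.82, SD, n = 3, exact permutation p = 0.1). Gene levels below are those of the barcodes with 0 B cell UMIs, and gene levels without that limit were not tested.

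C1q+ barcodes were themselves more common on average in the αPD-1 + corin samples. Among barcodes without a B cell UMI they were 20.8%, 27.4% and 16.0% in αPD-1 replicates 1 to 3 and 47.0%, 31.3% and 26.4% in αPD-1 + corin replicates 1 to 3, with αPD-1 replicate 2 above αPD-1 + corin replicate 3 (exact permutation p = 0.2). Over all kept barcodes with no B cell limit they were 21.0%, 28.0% and 16.8% against 47.1%, 31.6% and 27.3%, and the same pair of samples overlapped.

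Set against those levels, the share of C1q+ in Cd3+ barcodes depended on the base. Within barcodes without a B cell UMI, it was 0.644, 0.563 and 0.571 times the share in all of them in αPD-1 and 0.833, 1.11 and 1.08 times in αPD-1 + corin. The groups did not overlap on this ratio (log2 difference 0.76, exact permutation p = 0.1). With no B cell limit the ratio was 1.19, 0.979 and 1.32 in αPD-1 and 0.880, 1.19 and 1.10 in αPD-1 + corin, which overlapped (log2 difference -0.14, exact permutation p = 0.5). Both bases were chosen after the data were seen.

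Of all kept barcodes, T-macrophage barcodes were 1.74%, 2.79% and 0.872% in αPD-1 and 2.09%, 6.09% and 9.33% in αPD-1 + corin. The means were 1.80% ± 0.961 (SD, n = 3) and 5.84% ± 3.63 (SD, n = 3), and the groups overlapped (exact permutation p = 0.2). Thinned to 2000 UMIs the means were 1.68% ± 0.979 and 2.48% ± 1.78 (SD, n = 3, exact permutation p = 0.6), with at most 4000 genes they were 1.54% ± 0.566 and 4.94% ± 2.86 without overlap (SD, n = 3, exact permutation p = 0.1), and with no B cell limit 7.12% ± 2.00 and 6.68% ± 3.91 (SD, n = 3, exact permutation p = 0.9). Of C1q+ barcodes they were 14.4%, 16.4% and 9.38% against 4.74%, 21.1% and 36.9%, with the lowest and both highest values in αPD-1 + corin (exact permutation p = 0.5). Their means of 13.4% and 20.9% were 9.98% and 10.1% after thinning (exact permutation p = 1), and 32.3% and 22.0% with no B cell limit (exact permutation p = 0.4). αPD-1 + corin replicate 1, the library with most C1q+ barcodes (4385) and fewest Cd3+ barcodes (531), was the low one.

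**Figure D2:**
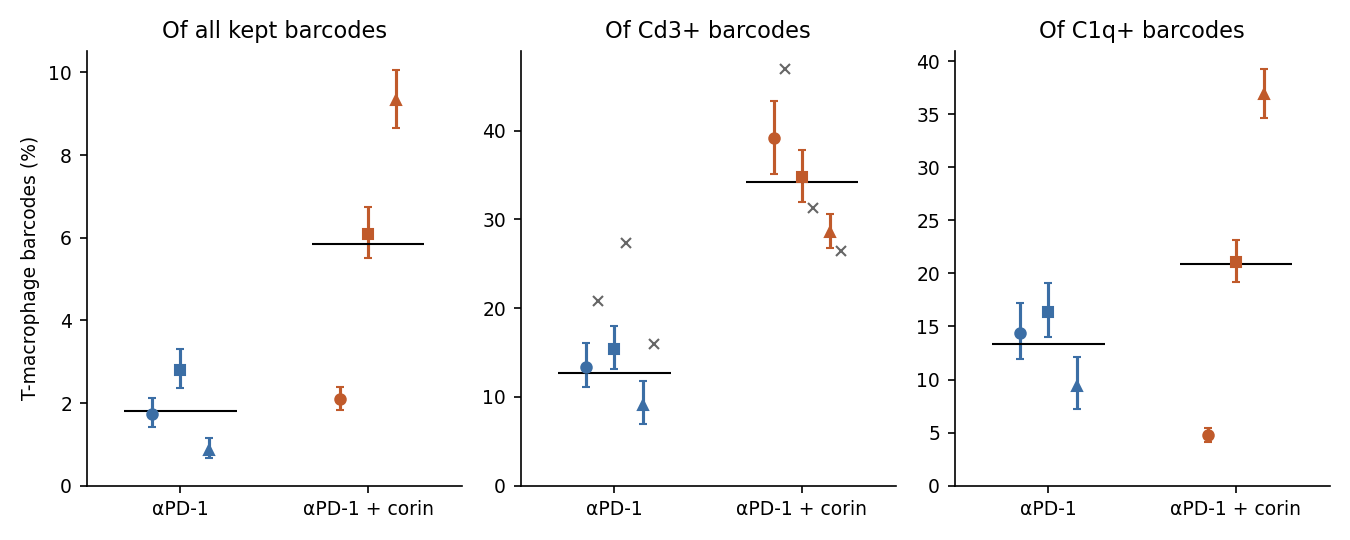
T-macrophage barcodes as a percentage of all kept, Cd3+ and C1q+ barcodes, with 1 point per sample (circle, square and triangle for replicates 1, 2 and 3), Wilson 95% intervals that cover counting error only, and black lines at the group means. Gray crosses in the middle panel give C1q+ barcodes as a percentage of barcodes without a B cell UMI, at 16.0% to 27.4% in αPD-1, above the points there, and 26.4% to 47.0% in αPD-1 + corin.

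Counts were set beside those of random pairing in droplets, at an assumed rate that no source used here states. At 0.4% multiplets per 1000 deposited barcodes, random pairs of a T cell and a macrophage would give 3.54, 5.22 and 2.34 barcodes in αPD-1 and 14.4, 11.7 and 19.1 in αPD-1 + corin. The formula took T and macrophage barcodes without a B cell UMI but divided by all kept barcodes. These counts and the rates below therefore mix 2 bases. Values with barcodes without a B cell UMI as the only base were not computed. The observed counts were 27.4, 24.9 and 21.3 times these in αPD-1 and 14.5, 29.8 and 32.6 times in αPD-1 + corin, and at 0.8% they were 13.7, 12.4 and 10.7 times and 7.24, 14.9 and 16.3 times. The rate at which the formula would give the observed counts was 59.7% to 76.6% of barcodes in 4 samples and 117% and 126% in αPD-1 + corin replicates 2 and 3. No rate can pass 100%, so the formula does not describe αPD-1 + corin replicates 2 and 3 at these limits. With at most 4000 genes that rate was 35.2% to 67.8% over the samples, and thinned to 2000 UMIs 42.6% to 57.2%. Other sources of 2 lineages in a barcode were not tested.

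The treatment difference in this ratio depended on depth and on the B cell limit. At full depth the groups overlapped (24.5 ± 3.05 and 25.6 ± 9.75, SD, n = 3, log2 difference -0.016, exact permutation p = 1), as they did with at most 4000 genes (15.3 ± 2.15 and 14.9 ± 3.33, SD, n = 3). Thinned to 2000 UMIs, αPD-1 + corin lay below αPD-1 without overlap (17.8 ± 2.89 and 11.6 ± 1.91, SD, n = 3, log2 difference -0.62, exact permutation p = 0.1). With no B cell limit it did so too (42.3 ± 3.87 and 26.4 ± 9.89, SD, n = 3, log2 difference -0.76, exact permutation p = 0.1). Only this comparison has counts and denominator on 1 base. The others divide counts without a B cell UMI by all kept barcodes, whose B cell UMIs differed between treatments. How the groups compare without that mix was not computed. Thinned, the share of C1q+ in Cd3+ barcodes over that in all barcodes without a B cell UMI was higher in αPD-1 + corin (0.526 ± 0.0616 and 0.678 ± 0.00637, SD, n = 3, without overlap, exact permutation p = 0.1).

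Pairs of other lineages were counted over all kept barcodes with no B cell limit, as the number of barcodes with both lineages over the number that independent detection would give. T with macrophage lay at 0.880 to 1.32 (median 1.14). Within barcodes without a B cell UMI it lay at 0.563 to 1.11 (median 0.739). Thinned to 2000 UMIs it was below 1 in 6 of 6 samples on both bases (0.542 to 0.683 and 0.470 to 0.685), and with at most 4000 genes likewise (0.578 to 0.819 and 0.353 to 0.740).

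T with melanoma, read from the pigment genes Pmel, Mlana and Dct, lay at 0.103 to 0.223, and T with fibroblast, read from Col1a1, Col1a2 and Col3a1, at 0.319 to 0.905. The T with macrophage ratio was higher than these in 6 of 6 samples, by 2.81 and 1.06 on the log2 scale (two-sided exact sign-flip p = 0.03125 each, the smallest for 6 samples, 0.0357 adjusted over 8 pairs). It was also higher in 6 of 6 samples than macrophage with melanoma and macrophage with fibroblast, by 2.17 and 1.80 (exact sign-flip p = 0.0357 adjusted). Within barcodes without a B cell UMI the 4 differences were 2.86, 0.75, 1.96 and 1.96, each in 6 of 6 samples. There, with at most 4000 genes, the difference from macrophage with melanoma was 0.92, higher in 5 of 6 (exact sign-flip p = 0.0625 adjusted).

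T with neutrophil, read from Csf3r, Cxcr2 and Retnlg, lay at 0.997 to 2.65, above T with macrophage in 6 of 6 samples (log2 difference -0.50, exact sign-flip p = 0.0357 adjusted). After thinning it was above in 3 of 6 (exact sign-flip p = 0.469 adjusted). Macrophage with neutrophil lay at 1.16 to 2.56 (log2 difference -0.76, exact sign-flip p = 0.0357 adjusted), and Csf3r, the receptor of granulocyte colony-stimulating factor, is also found in monocytes. T with B lay at 1.13 to 2.20, above T with macrophage in 6 of 6 (log2 difference -0.42, exact sign-flip p = 0.0357 adjusted), and macrophage with B at 0.949 to 1.96 (log2 difference -0.022, exact sign-flip p = 0.938 adjusted).

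**Figure D3:**
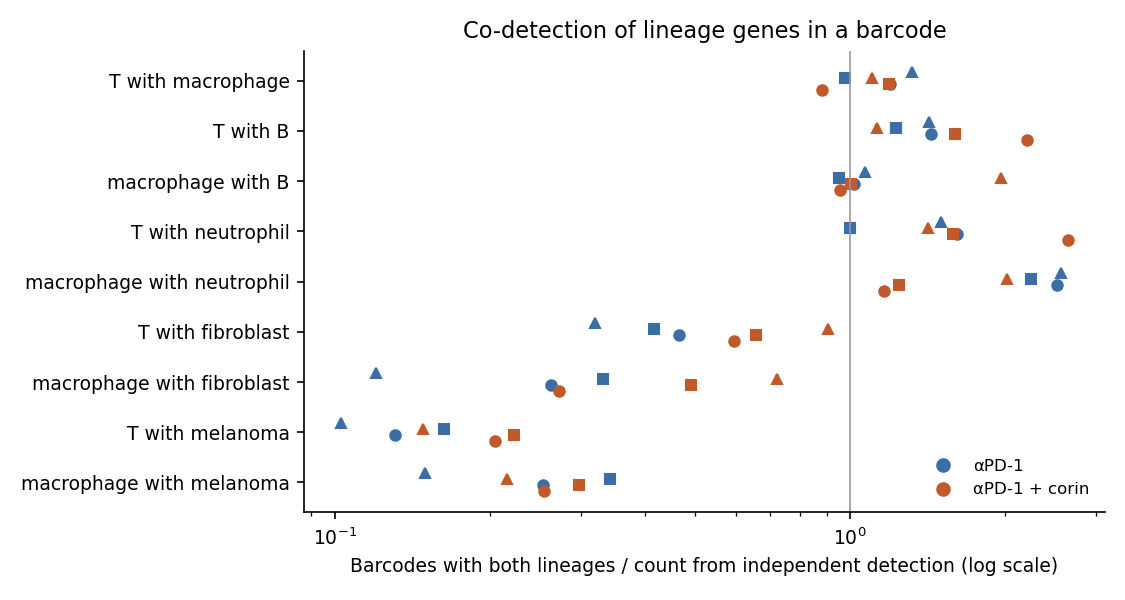
Number of barcodes with genes of both lineages over the number expected from independent detection, over all kept barcodes with no B cell limit, on a log scale, for 9 lineage pairs, with 1 point per sample (circle, square and triangle for replicates 1, 2 and 3). T with macrophage sits at 0.880 to 1.32 around the gray line at 1, both melanoma pairs sit at 0.103 to 0.341, and T with neutrophil lies at 0.997 to 2.65.

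Melanoma barcodes gave a background for C1q UMIs in cells that should lack them. At least 3 C1q UMIs were in 2.90%, 6.40% and 1.98% of melanoma barcodes in αPD-1 and in 11.2%, 9.22% and 5.65% in αPD-1 + corin, at medians of 17437 to 44846 UMIs. Each was below the share of Cd3+ barcodes in its own sample (9.14% to 39.2%). Thinned to 2000 UMIs per barcode, the share of melanoma barcodes was 0.799% to 5.24%, against 8.20% to 14.0% of Cd3+ barcodes in αPD-1 and 15.3% to 30.0% in αPD-1 + corin.

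Most T-macrophage barcodes carried CD8 T cell transcripts in every sample but αPD-1 + corin replicate 1. A Cd8a or Cd8b1 UMI without Foxp3, the regulator of regulatory T cells, was in 64.9%, 78.5% and 68.0% of them in αPD-1 and in 46.2%, 58.5% and 84.6% in αPD-1 + corin. These were 1025 of 1456 barcodes, 526 of them from αPD-1 + corin replicate 3. In T-only barcodes, which were shallower, the shares were 50.7%, 54.9% and 56.8% in αPD-1 and 41.2%, 49.6% and 76.2% in αPD-1 + corin, and in each sample the T-macrophage share was higher. Foxp3 without CD8 genes was in 62 of the 1456, at 0.643% to 10.1% per sample. Cd4 or Cd40lg, the ligand that helper T cells show to CD40, without either was in 85 and CD8 genes with Foxp3 in 73.

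To read T cell states without the depth of the barcode, the UMIs of each gene list were divided by those of the 8 other T cell genes and compared with T-only barcodes of the same sample. Cytotoxic genes (Gzmb, Gzma and Gzmk, proteases of the killing granule, Prf1, the pore former, and Nkg7) had log2 ratios of 0.36, 0.96 and 0.47 in αPD-1 and 0.11, 0.23 and 0.00 in αPD-1 + corin. The median over samples was 0.29 and the mean 0.35 (exact sign-flip p = 0.03125, 0.281 adjusted over 9 T lists). With the macrophage-only part subtracted, 5 of 6 samples were above 0. CD8 genes had a mean of 0.21, above 0 in 5 of 6 samples (exact sign-flip p = 0.281 adjusted). None of the 9 T lists passed an adjusted p of 0.05.

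The naive list (Tcf7 and Lef1, transcription factors of resting and memory T cells, and Ccr7, a lymph node homing receptor) had a mean of -0.36 and was lower in 4 of 6 samples (exact sign-flip p = 0.281 adjusted). Inhibitory receptors with Tox (Pdcd1, Lag3 and Tigit) had 0.22, CD4 genes -0.18, γδ T cell genes 0.13, Ifng -0.021 and regulatory T cell genes -0.0072, each with 3 to 5 samples on its side of 0. The granzymes Gzmc to Gzmf had the widest spread, from -0.77 to 2.45, with 3 samples on each side.

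Macrophage states were read in the same way, per UMI of the 7 other macrophage genes and against macrophage-only barcodes. The MHC class II list (H2-Aa, H2-Ab1, H2-Eb1, Cd74, H2-DMb1 and Ciita), which loads and shows peptides to CD4 T cells, was at 5828, 4316 and 5839 UMIs per 1000 of those genes in αPD-1 and 5231, 6484 and 7930 in αPD-1 + corin. Macrophage-only barcodes had 2325, 2585 and 3286 and then 1809, 3458 and 4547, so the T-macrophage barcodes were higher in 6 of 6 samples. The mean log2 ratio was 1.02 (exact sign-flip p = 0.03125, 0.141 adjusted over 9 macrophage lists). T-only barcodes also held 10.3 to 50.9 UMIs of this list each, and with their part subtracted the mean was 0.48, again higher in 6 of 6 samples (exact sign-flip p = 0.0703 adjusted).

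Genes of resident-like macrophages (Lyve1, Folr2, Cd163, Timd4 and Mrc1) had a mean of -0.67, lower in 5 of 6 samples (exact sign-flip p = 0.141 adjusted). With the T-only part subtracted they were lower in 6 of 6, at -0.73 (exact sign-flip p = 0.0703 adjusted). The Trem2 list (Trem2, a lipid receptor, Lpl, a lipase, and Gpnmb, a lysosomal glycoprotein) had -0.49, and -1.10 after subtraction, then lower in 6 of 6 (exact sign-flip p = 0.0703 adjusted).

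Ligands of PD-1 (Cd274 and Pdcd1lg2) had a mean of 0.85, higher in 6 of 6 samples (exact sign-flip p = 0.141 adjusted). After subtraction their mean was 0.015, with 5 samples higher and 1 lower. The chemokines Cxcl9 and Cxcl10, which draw T cells through CXCR3, had 0.55 and 0.036, and the inflammatory list (Nos2, Il1b, Cxcl2 and Tnf) 0.44 and -0.22. Ppbp with Ccl24 had -0.42 and -0.78, and the hypoxic list (Mmp12, Mmp13, Arg1 and Spp1) -0.077 and -0.56, each lower in 5 of 6 samples after subtraction. Monocyte genes (Chil3, Vcan and Fn1) had 0.34, and after subtraction they were lower in 6 of 6 samples, at -0.13 to -2.64 in 5 of them. In αPD-1 + corin replicate 3 the subtraction left none of their UMIs, so the mean of -2.81 follows the added 0.5 UMIs. None of the 9 lists passed before or after subtraction.

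**Figure D4:**
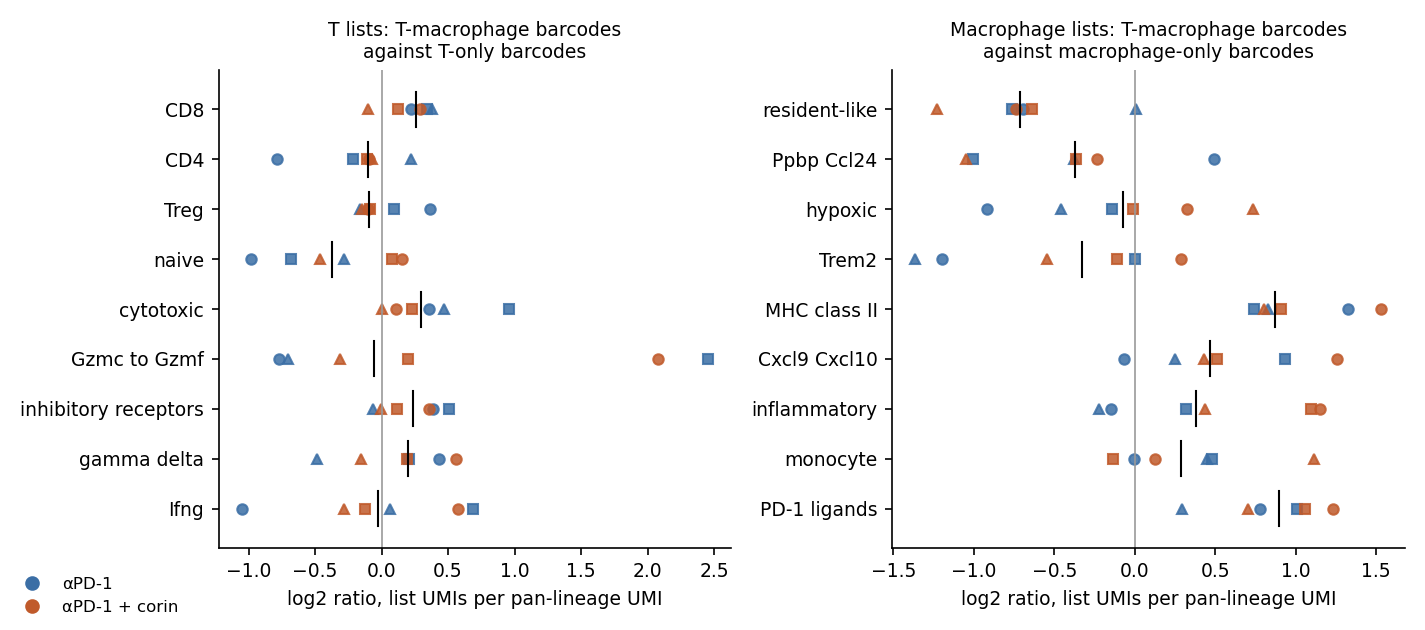
Log2 ratio of each list's UMIs per UMI of the lineage's other genes, T-macrophage barcodes against T-only barcodes (left, 9 T lists) or macrophage-only barcodes (right, 9 macrophage lists), with 1 point per sample (circle, square and triangle for replicates 1, 2 and 3) and a black bar at the median. All 6 points lie above 0 for MHC class II genes (0.74 to 1.53) and PD-1 ligands, and 5 of 6 lie below 0 for resident-like genes.

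The RNA of T-macrophage barcodes was close in amount to a sum of the 2 classes. Fitted on the 8 T and 7 macrophage genes, the average T-macrophage barcode held 1.43, 1.45 and 1.13 T-only barcodes in αPD-1 and 0.968, 1.17 and 1.46 in αPD-1 + corin. It held 0.834, 0.909 and 1.07 macrophage-only barcodes in αPD-1 and 1.13, 0.901 and 0.966 in αPD-1 + corin. The observed UMIs per barcode were 0.844 to 0.987 times the fitted sum, and 43.0% to 61.6% of the sum came from the T-only profile.

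**Figure D5:**
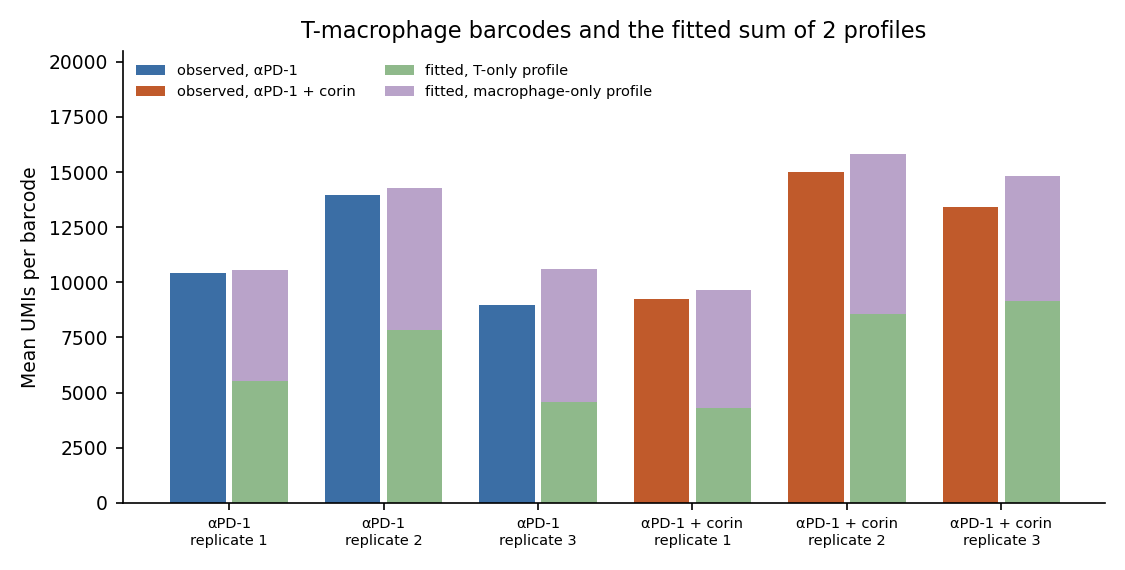
Mean UMIs per T-macrophage barcode (blue, αPD-1, and orange, αPD-1 + corin) beside the sum fitted from T-only (green) and macrophage-only (violet) profiles of the same sample. The observed bars reach 0.844 to 0.987 of the fitted ones.

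Of 3398 genes with at least 50 CPM (counts scaled to a common library total), 0 (0%) lay at least 1.5-fold above the fitted sum in all 6 samples. Above it by any amount in all 6 were 79 genes (2.32%), and below it in all 6 were 551 (16.2%), given as a description with no test. The 10 genes of the 79 with the largest medians included 4 MHC class II genes. H2-Ab1 was 0.84, 0.36 and 0.52 above the sum on the log2 scale in αPD-1 and 0.31, 0.37 and 0.28 in αPD-1 + corin, and H2-Aa, H2-Eb1 and H2-DMb1 had medians of 0.35 to 0.36. Gzmk, a granzyme of effector memory CD8 T cells, led with a median of 0.56, and Lag3, an inhibitory receptor that binds MHC class II, had 0.49. The other 4 were Srgap3 (0.55), Setbp1 (0.54), Tmem163 (0.42) and Zc3h7a (0.35).

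As lists, MHC class II genes were above the sum in 6 of 6 samples (median 0.33), with 5 of the 5 members at 50 CPM above it in all 6, and cytotoxic genes in 6 of 6 (median 0.30), with 2 of 4. The Trem2 list was below it in 6 of 6 samples (median -0.63), and melanoma genes too (median -1.38). Within the Trem2 list Gpnmb had a median of -0.97 and was above the sum in 0 samples. Trem2 (-0.097) and Lpl (-0.11) lay nearer the sum and were above it in 2 and 1 samples. Among the 10 genes farthest below were the pigment cell genes Pmel (-1.71), Dct (-1.36) and Tyrp1 (-1.21), the collagen chaperone Serpinh1 (-1.33), the matrix protein Sparc (-1.25) and the acute-phase gene Saa3 (-1.09). T-macrophage barcodes held less RNA of these genes than the fitted sum of both classes in 6 of 6 samples.

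Interaction genes were read from fixed lists. Of the 9 costimulation and adhesion genes at 50 CPM, 1 was above the sum in all 6 samples, Cd48 (median 0.06), a ligand of CD2, and the list's median was 0.030. Of 11 chemokine and receptor genes, 2 were above it in all 6, Ccl4 (median 0.20), a chemokine of activated T cells and macrophages, and Cxcl16 (median 0.23), the ligand of CXCR6. Of 8 T cell activation genes 0 were above it in all 6, and Nr4a2, an early gene of receptor signaling, had 0.40 and was above it in 5 of 6. Cell cycle genes had a list median of 0.024, with 0 of 5 genes above it in all 6.

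The leading T cell receptor segments of T-macrophage barcodes followed the library they came from. Trbv31, a β chain variable segment on chromosome 6 (41534627 to 41535386, GRCm39), took 42.6% of Trbv UMIs in T-only and 43.0% in T-macrophage barcodes of αPD-1 + corin replicate 3, and 33.6% and 46.1% in replicate 2. In αPD-1 replicate 2 Trbv14 led with 14.5% and 38.5%, in αPD-1 replicate 3 Trbv12-1 with 18.4% and 26.8%, and in αPD-1 + corin replicate 1 Trbv19 with 15.5% and 20.9%. In αPD-1 replicate 1 Trbv13-2 led T-only barcodes (17.9%) and was second in T-macrophage barcodes (19.5%), where Trbv15 led (23.2%). Of the segments ranked 3 in T-only barcodes, Trbv29 in αPD-1 replicate 1 (6.66% and 1.6%) and Trbv3 in αPD-1 + corin replicate 2 (7.22% and 1.98%) ranked 14 and 11 in T-macrophage barcodes. Those of the other samples ranked 3 or 4. The shares are of UMIs, 153 to 3435 per library in T-macrophage barcodes, so deep barcodes weigh more. Macrophage-only barcodes held 1 to 24 Trbv UMIs per library. Near-identical segments such as Trbv13-1 and Trbv13-2 can share reads, so their split is uncertain.

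More than 1 Trbv segment was found in 38.2%, 45.5% and 25.0% of T-macrophage barcodes with any in αPD-1 and in 13.1%, 26.2% and 64.0% in αPD-1 + corin. In T-only barcodes the shares were 27.6%, 21.3% and 16.6%, then 13.5%, 14.2% and 46.6%, at lower depth. The share was higher in T-macrophage barcodes in every sample but αPD-1 + corin replicate 1.

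Between treatments, 1 gene changed within T-macrophage barcodes. Lef1, which keeps T cells in a naive or memory state, stood at 85.4, 85.5 and 108 CPM in αPD-1 and at 19.8, 21.3 and 22.7 CPM in αPD-1 + corin, with no overlap. It fell by 2.13 on the log2 scale (SE 0.16, adjusted p = 0.00408, edgeR quasi-likelihood test on UMIs summed per sample). It was the only one of 10271 genes tested (0.00974%) that fell, and 0 rose, while 570 higher and 398 lower genes had an unadjusted p under 0.05. DESeq2 called 92 higher and 23 lower, and edgeR without αPD-1 + corin replicate 3 called 321 and 51.

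Lef1 was lower in T-only barcodes too, at 273 CPM in αPD-1 and 43.5 in αPD-1 + corin (log2 -2.65, edgeR adjusted p = 0.00124), and macrophage-only barcodes held 5.37 and 0.807 CPM. Against the sum fitted from the sample's own T-only and macrophage-only barcodes, its log2 difference in T-macrophage barcodes was 0.41 (edgeR adjusted p = 0.913). The adjusted p of Lef1 was 0.0678, 0.0524 and 0.0564 without αPD-1 replicate 1, αPD-1 replicate 2 or αPD-1 + corin replicate 2 (edgeR). T-only barcodes had 262 genes past the threshold (2.30%) and macrophage-only barcodes 21 (0.173%), in sums of different depth, and whether the classes differ in their response was not tested.

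Tcf7, the partner of Lef1 in naive T cells, stood at 66.6, 61.1 and 66.9 CPM in αPD-1 and 31.6, 27.2 and 19.5 in αPD-1 + corin. The groups did not overlap, as for 1636 of 10271 genes (15.9%), and the log2 difference was -1.37 (edgeR adjusted p = 0.102). Cd8a had 192, 254 and 194 CPM against 66.9, 156 and 287, and Gzmb 402, 834 and 257 against 176, 481 and 840, and both overlapped between treatments. Ifng, the T cell cytokine that activates macrophages, had 99.4, 191 and 106 CPM against 49.8, 139 and 260.

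Of the 18 state lists, 2 did not overlap between treatments, beside 1636 of 10271 single genes (15.9%). The inflammatory list was at 480 ± 20.4 UMIs per 1000 of the 7 macrophage genes in αPD-1 and 2463 ± 1385 in αPD-1 + corin (SD, n = 3, log2 difference 2.18, exact permutation p = 0.1, 0.72 adjusted over 18 lists). The Trem2 list was at 240 ± 55.3 and 414 ± 27.9 (SD, n = 3, log2 difference 0.81, exact permutation p = 0.1, 0.72 adjusted). In macrophage-only barcodes the log2 of the group mean was also higher for the inflammatory list, at 8.94 in αPD-1 and 10.28 in αPD-1 + corin. For the Trem2 list it was 8.78 and 8.85. Whether the classes differ in these lists was not tested. MHC class II genes were at 5328 ± 876 and 6548 ± 1351 (SD, n = 3) and overlapped (exact permutation p = 0.4).

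Within the inflammatory list, Cxcl2, a chemokine for neutrophils, had 365, 436 and 589 CPM in αPD-1 and 3999, 4280 and 949 in αPD-1 + corin. Il1b, the precursor of interleukin 1β, had 68.5, 77.6 and 66.9 against 477, 930 and 153, and Nos2, which makes nitric oxide, had 16.9, 17.5 and 10.8 against 17.7, 45.0 and 145. None of these passed the edgeR threshold (adjusted p = 0.155, 0.183 and 0.421). Gpnmb of the Trem2 list had 71.3, 193 and 77.7 CPM against 447, 443 and 265 (log2 difference 1.69, edgeR adjusted p = 0.226).

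Neutrophil, melanoma and fibroblast transcripts were also higher on average in αPD-1 + corin, and those of melanoma and fibroblasts overlapped between treatments. The 5 neutrophil genes summed to 22.3 to 41.9 CPM in T-macrophage barcodes of αPD-1 and 284 to 4909 CPM in αPD-1 + corin, and 4.0% to 10.0% and 9.65% to 45.3% of the barcodes had at least 2 UMIs of Csf3r, Cxcr2 and Retnlg. S100a8, an abundant neutrophil protein, was at 0, 6.38 and 0 CPM against 1141, 1536 and 103, and macrophage-only barcodes had 53.7 to 111 and 111 to 3341 CPM of the 5 genes. The 4 melanoma genes summed to 46.8 to 487 CPM in αPD-1 and 433 to 1346 in αPD-1 + corin. The 4 fibroblast genes summed to 9.88, 7.72 and 716 CPM in αPD-1 and 1657, 305 and 655 in αPD-1 + corin (median log2 difference 2.32 over the list, 0 called by edgeR), and 0%, 1.54% and 2.0% of the barcodes against 6.73%, 2.01% and 6.43% had at least 3 UMIs of Col1a1, Col1a2 and Col3a1. In the T-macrophage barcodes without a UMI of Csf3r, Cxcr2, Retnlg, Pmel, Mlana or Dct, edgeR called 32 of 8149 genes higher and 9 lower, with Lef1 at -2.22. Other neutrophil and melanoma genes, S100a8 among them, were not part of that limit. The part of these cells in the inflammatory and Trem2 values was not tested.

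Of 10 dissociation stress genes 0 passed the edgeR threshold. The heat shock genes Hspa1a (1103, 782 and 807 CPM against 192, 211 and 610) and Hspa1b did not overlap between treatments and were lower in αPD-1 + corin, and the early gene Egr1 (132, 171 and 129 against 402, 544 and 226) was higher. Over all 34 lists the calls were 0 higher and 1 lower, Lef1. The naive list had 1 of 3 genes lower and a median log2 difference of -1.37, the inflammatory list 0 of 4 called and a median of 2.41, the cytotoxic list 0 of 5 and -0.37, and the MHC class II list 0 of 6 and 0.32, beside a median of -0.00068 over all genes tested.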

How the data were processed

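UMI counts were measured by single-cell RNA-Seq (10x GEM-X 5' v3) in 3 αPD-1 and 3 αPD-1 + corin samples. The authors deposited raw UMI counts of 32285 genes per barcode from Cell Ranger 8.0, with GRCm39 named as the genome. Of the gene identifiers 31674 are in GENCODE vM39. T-macrophage barcodes and gene lists were chosen with earlier results of these data known. Some list genes are not reported here by name, although list sums and counts include them. No doublet caller was run. The text names genes that differed between treatments (called, 20 CPM or more in the higher group, groups apart), list genes and, against the fitted sum, the 10 with the largest medians above it in all 6 samples. Other genes were chosen after their values were seen.

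Shares, ratios and list values per sample were compared by exact permutation or sign-flip tests, with Benjamini-Hochberg adjustment. Summed UMIs were tested with edgeR 4.0.16 (TMM, filterByExpr, quasi-likelihood, threshold 0.05) and DESeq2 1.42.0. On simulated data for T-macrophage barcodes, edgeR found 177 of 200 genes changed 4-fold among 10271, with 11 false calls. List ratios and the fitted sum add 0.5 UMIs. Gene levels in CPM follow TMM library sizes, and levels against the fitted sum use plain totals. Depth per T-macrophage barcode is given above. Co-detection was first designed with lineage sets free of B cell UMIs over all kept barcodes. It is given instead with counts and denominator on 1 base. Random pairing kept the first design, except where no B cell limit is stated.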

Additional observations from a re-analysis of the deposited data

Results flagged for a closer look

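Chemokine and chemokine receptor genes stood on opposite sides of the fitted sum in the treatments. Summed over the list of 14 genes, T-macrophage barcodes were at 0.12, 0.38 and 0.34 on the log2 scale against the sum in αPD-1 and at -0.039, -0.014 and -0.049 in αPD-1 + corin, a difference of the means of -0.32. The difference was not tested. The list was flagged because every sample of a group lay on the same side, a pattern searched for in all lists. All UMIs together lay below the fitted sum in every sample. They were 0.987, 0.978 and 0.844 times it in αPD-1 and 0.959, 0.949 and 0.905 times it in αPD-1 + corin. The sign of a list value near 0 therefore does not set the list apart from all genes. Ccl5, a T cell chemokine and the most abundant of the list in T-only barcodes, was at 0.56, 0.36 and 0.47 in αPD-1 and at -0.22, 0.17 and -0.11 in αPD-1 + corin. Groups of 3 samples were too small for a test of single outlying samples.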

How the results depend on the processing

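Of 199 results recomputed under another setting with all samples, 176 were counted as the same. Shares and random pairing were judged by direction alone, and counts by similar size. The rest were judged by direction and side of the threshold. The T and macrophage lists had passed no threshold, so keeping their side says little. For genes called between treatments in T-macrophage barcodes (0 higher and 1 lower), the counts were 92 and 23 with DESeq2, 515 and 111 without a filter on low counts and 3 and 3 with at most 4000 genes. They were 32 and 9 in barcodes without a UMI of Csf3r, Cxcr2, Retnlg, Pmel, Mlana or Dct. The replicate block gave 39 higher and 4 lower. Same-numbered samples correlated at -0.077, 0.16 and -0.10 in their deviations, not every sample correlated best with its own number, and the numbers were not taken as pairs. With the fitted sum as offset, an alternative chosen after the data were seen, 2 genes were lower (Ly6a and Ly6d) and Lef1 had 0.41. The calls at 4000 genes were Saa3, Ccl1 and Acod1 higher and Aff3, Lef1 and Satb1 lower. The cause of these changes was not tested.

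Leaving out each sample in turn gave 0 to 321 higher and 0 to 51 lower genes. Calls were 321 and 51 without αPD-1 + corin replicate 3, 3 and 1 without its replicate 1, 1 and 1 without αPD-1 replicate 3, and 0 without αPD-1 replicate 1, αPD-1 replicate 2 or αPD-1 + corin replicate 2. The lists that did not overlap between treatments numbered 2 to 8, with 4 without αPD-1 replicate 3, and 5 and 8 without αPD-1 + corin replicates 1 and 3. The difference in the share of C1q+ barcodes ranged from -0.47 to 15.6 percentage points, lowest without αPD-1 + corin replicate 3, and that in observed over chance pairing from -0.23 to 0.35 on the log2 scale. The share of Cd3+ barcodes kept groups apart, at 19.1 to 24.3 points. Regulatory T cell genes ranged from -0.081 to 0.024, Ifng from -0.16 to 0.18 and the hypoxic list from -0.24 to 0.090. With 5 samples no sign-flip p can go below 0.0625.

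Directions that turned under other settings were Gzmc to Gzmf (-0.41 with at least 10 C1q UMIs and -0.015 with at most 4000 genes), γδ genes (-0.044 with at least 10 C1q UMIs), regulatory T cell genes (0.038 with at most 4000 genes and 0.0045 with at most 5% mitochondrial UMIs), Ifng (0.077) and monocyte genes (-0.15) with at most 4000 genes (and lower in 6 of 6 samples with the T-only part subtracted), and the inflammatory list (-0.22 with the T-only part subtracted). None of these had passed a test. Thinning to 2000 UMIs and subtraction were also chosen after the data were seen. With no limit on B cell UMIs, also chosen then, the difference in the share of all kept barcodes was -0.44 percentage points, that in the share of C1q+ barcodes -10.3, and that in the share of Cd3+ barcodes 11.5.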
